A study of Mus musculus with 6 samples.

Results

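The genes described here are 41 genes of vascular smooth muscle, the cell type that fills the media of the aorta. They encode the contractile filaments, the enzymes that regulate myosin, adhesion and cytoskeletal proteins, and proteins of calcium and cGMP signalling. Members were taken by gene symbol, older aliases included, from the platform annotation of the arrays. Probe sets were named for 39 of the 41 genes, 90 probe sets of 45037 in all. Itpr1, the inositol trisphosphate receptor of the calcium store, and Ednra, an endothelin receptor, were not analysed here. Gucy1a3 is given under its current symbol, Gucy1a1.

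The study compared whole aortas of apoE-/- mice with those of wild-type mice, both C57BL/6J and both 32 weeks old, with 3 arrays for each genotype. Mice without apolipoprotein E develop high plasma cholesterol and atherosclerotic plaques. The labels name the samples as aorta extracts and give a replicate number. They do not say whether a sample was 1 animal or a pool, so the p-values below rest on differences among arrays that may be technical. Diet, sex and the origin of the apoE-/- line are not stated in the labels.

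Contraction of smooth muscle begins when calcium and calmodulin activate myosin light chain kinase, which phosphorylates the regulatory light chain of myosin. Myosin phosphatase reverses this step and is itself inhibited by the small protein CPI-17. Nitric oxide opposes contraction through soluble guanylate cyclase and the cGMP-dependent kinase. The serum response factor (SRF) and its coactivator myocardin drive transcription of many contractile genes through CArG boxes in their promoters. In plaques, smooth muscle cells are known to lose contractile proteins as they migrate into the intima.

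Intensities are in arbitrary units on a linear scale, scaled by the authors so that the trimmed mean of every array was 500.002. The median of an array lay between 178 and 186.7 units for apoE-/- and between 179.9 and 195.5 units for wild type. Arrays of the same genotype had pairwise correlations between 0.966 and 0.972 on the log2 scale, and no array was a copy of another. Between genotypes they ran from 0.950 to 0.968, and apoE-/- replicate 2 correlated with wild type replicate 1 at 0.968, against 0.966 with apoE-/- replicate 3. Apoe itself averaged 253 ± 203 units in apoE-/- aorta and 5207 ± 778 units in wild-type aorta (SD, n = 3 each). Each of the 6 labels fitted the Apoe value of its array. Wild type replicate 3 stood apart in striated muscle genes. Of 18 listed markers of skeletal and cardiac muscle, 11 passed the filter on mean intensity and were tested. Of these 11, 6 read over 3 times higher there than on any other array. The probe sets of Myh4, Tnnt3, Tnni2 and Ckm passed the filter only through that array. Myh4, for one, read 4006 units there and 5.4 to 51.3 units elsewhere. The count of 6 is thus partly set by the filter. The summed level of the 11 was 23244 units against 1986 to 3585 units on the other 5 arrays. The beta-actin 3′ to 5′ ratio, a measure of RNA integrity, lay between 1.15 and 1.155 for apoE-/- and between 1.164 and 1.21 for wild type, without overlap. The same ratio for Gapdh lay between 0.705 and 0.816 for apoE-/- and between 0.736 and 0.775 for wild type, with overlap. The part of RNA integrity in the results was not tested.

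Smooth muscle genes leaned lower in apoE-/- aorta, by small amounts, and few passed the test. With the brightest probe set standing for each gene, all 39 genes passed the filter on low intensity. Of these 39 genes, 3 fell and none rose at a limma adjusted p under 0.05, where 0.468% of the 13039 genes tested fell and 3.19% rose. At an unadjusted limma p under 0.05, 14 were lower and none higher, against 8.76% and 9.62% of all genes. The 3 were Ppp1r14a, which encodes CPI-17, the surface protein Mcam and the calcium release channel Ryr2. A lower mean in apoE-/- aorta was seen for 37 of 39 genes, against 58.8% of all genes. The median log2 change over the 39 genes was -0.18, against -0.05 over all genes tested. In 16 of the 39 genes every apoE-/- array read below every wild-type array, against 13.7% of all genes, and in none did every apoE-/- array read above, against 11.0% of all genes. The members were chosen with earlier results of these data known, so these shares may be partly set by that choice.

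The smooth muscle markers fixed for the check of the tissue (Acta2, Myh11, Tagln, Cnn1, Smtn, Des, Lmod1 and Actg2) all passed the filter. In bulk tissue, fewer smooth muscle cells and less RNA per cell cannot be told apart. Beside these values, all 10 markers of macrophages had apoE-/- arrays entirely above the wild-type arrays, and 9 of them rose, with the largest log2 changes in Cd68 (2.87), Tyrobp (2.38), Itgam (1.74) and Fcgr1 (1.73). Their summed level ran from 30385 to 43368 units for apoE-/- and from 15279 to 16431 units for wild type. The part of added macrophage RNA in the lower smooth muscle signals was not tested.

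**Figure D1:**
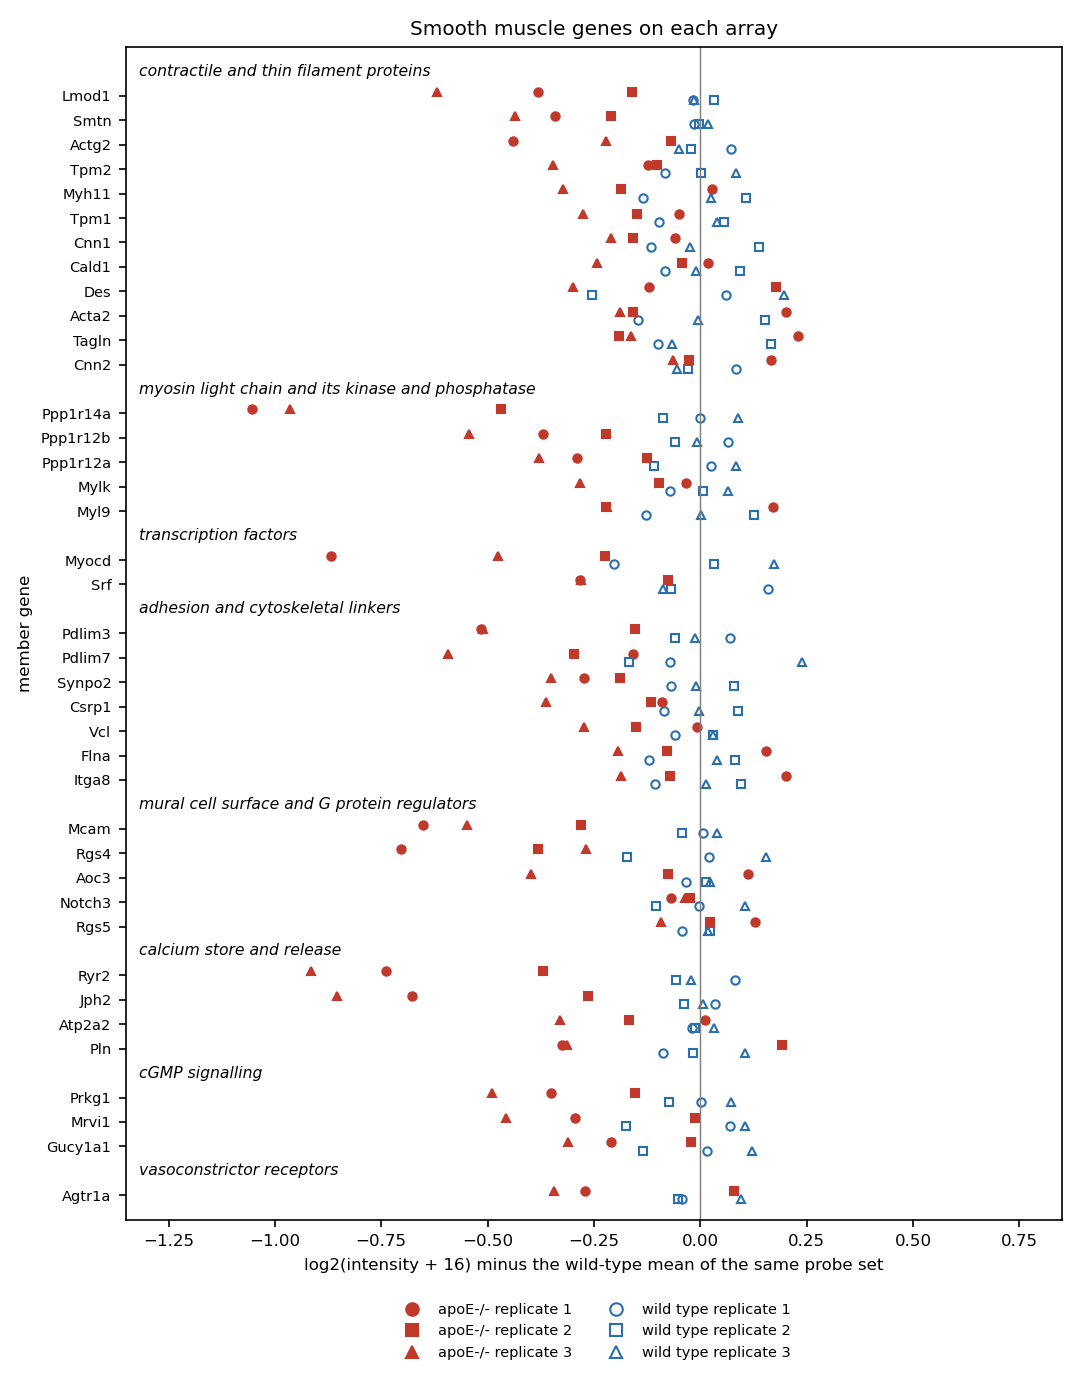
Each row is 1 member gene and each symbol 1 array, placed by its log2(intensity + 16) minus the wild-type mean of the same probe set (x axis, log2 units), with filled red symbols for apoE-/- and open blue symbols for wild type. Ppp1r14a, Ryr2, Jph2 and Mcam show all 3 apoE-/- arrays left of the wild-type arrays, whereas Acta2, Tagln and Itga8 overlap.

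The apoE-/- arrays did not share the shift equally. For each array, the median over the 39 genes of the log2 difference from the wild-type mean was -0.16, -0.15 and -0.32 in apoE-/- replicates 1, 2 and 3. The same median was -0.03, -0.01 and 0.03 in wild type replicates 1, 2 and 3. The apoE-/- replicate 3 array read the lowest of all 6 for 28 of the 39 genes. The apoE-/- replicate 1 array was lowest for 8 genes and highest for 8 others, and apoE-/- replicate 2 was lowest for 2. Below the wild-type mean lay 28, 35 and 39 genes on apoE-/- replicates 1, 2 and 3.

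Among the contractile and thin filament genes, none of 12 passed the test, and 11 had a lower mean in apoE-/- aorta. Their log2 changes ran from -0.39 for Lmod1 to 0.02 for Cnn2, with a median of -0.15. Acta2, the smooth muscle actin, read 16385, 12763 and 12506 units on its brightest probe set in apoE-/- replicates 1, 2 and 3. The same probe set read 12883, 15829 and 14195 units in wild type replicates 1, 2 and 3, so the genotypes overlapped widely. The log2 change was -0.05 ± 0.13 (SE, 95% interval -0.34 to 0.24, adjusted p = 0.874), and it turned to 0.01 and 0.02 when apoE-/- replicate 2 or 3 was left out and to 0.03 when wild type replicate 2 was.

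Myh11, the smooth muscle myosin heavy chain, read 12891, 11129 and 10116 units in apoE-/- aorta and 11535, 13643 and 12889.9 units in wild-type aorta. Tagln, the actin-binding protein transgelin, read 14903, 11120.1 and 11341 units in apoE-/- aorta, against 11853, 14246 and 12133 units in wild-type aorta. Cnn1, calponin, which damps myosin ATPase activity, read 7295, 6818 and 6574 units in apoE-/- aorta and 7019.6, 8373 and 7482 units in wild-type aorta. The groups overlapped in each of these 3 genes. For Tagln, apoE-/- replicate 1 read above all wild-type arrays and apoE-/- replicates 2 and 3 below them. Their log2 changes were -0.16 ± 0.11 for Myh11, -0.04 ± 0.13 for Tagln and -0.14 ± 0.09 for Cnn1 (SE), with adjusted p of 0.492, 0.899 and 0.47. The sign for Tagln turned in 4 of 16 alternative settings. It was 0.03 and 0.02 when apoE-/- replicate 2 or 3 was left out, 0.04 when wild type replicate 2 was, and near 0 with array weights.

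With the brightest probe set read for each gene, Smtn and Lmod1 were the contractile genes with the clearest separation. Smtn, smoothelin, a protein of fully contractile smooth muscle, read 5803, 6356 and 5441 units in apoE-/- aorta, against 7280.0, 7349 and 7453 units in wild-type aorta. Lmod1, leiomodin, which nucleates actin filaments, read 2896, 3379 and 2457 units in apoE-/- aorta and 3735, 3866 and 3740.4 units in wild-type aorta. The wild-type arrays were tight and all apoE-/- arrays lay below them in both genes. The log2 changes were -0.33 ± 0.09 for Smtn (adjusted p = 0.0825) and -0.39 ± 0.12 for Lmod1 (SE, adjusted p = 0.132). Lmod1 passed without apoE-/- replicate 2 (adjusted p = 0.0382) and in none of its other 16 alternative settings, over which adjusted p reached 0.332.

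On their brightest probe sets, the rest of the contractile genes shifted less. Actg2, the enteric smooth muscle actin, read 2593 to 3358 units in apoE-/- aorta and 3404 to 3706 units in wild-type aorta, a log2 change of -0.24 ± 0.11 (SE, adjusted p = 0.277). Actg2 and Acta2 proteins are nearly identical, and how far their probe sets share signal was not tested. Log2 changes were -0.19 for the tropomyosin Tpm2 and -0.16 for Tpm1, -0.09 for caldesmon (Cald1), -0.08 for the intermediate filament desmin (Des) and 0.02 for Cnn2. On these brightest probe sets, Tpm2 alone of the 5 had groups that did not overlap. Dimmer probe sets of Tpm1 and Des also had separate groups, with log2 changes of -0.33 ± 0.09 (adjusted p = 0.125) and -0.40 ± 0.18 (SE, adjusted p = 0.303).

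Ppp1r14a had the lowest p of the 39 genes. CPI-17 is the inhibitor that, when phosphorylated, keeps myosin phosphatase off and so sustains contraction. Its 1 probe set read 2618, 3936 and 2789.6 units in apoE-/- replicates 1, 2 and 3, against 5455, 5134 and 5798 units in wild type replicates 1, 2 and 3. The apoE-/- arrays all lay well below the wild-type arrays, and replicate 2 was the highest of them. The mean was 3115 ± 717 units in apoE-/- aorta and 5462 ± 332 units in wild-type aorta (SD, n = 3 each), a log2 change of -0.83 ± 0.15 (SE, adjusted p = 0.022).

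Ppp1r14a was called in 11 of 17 alternative settings, with log2 changes between -1.01 and -0.72 and adjusted p between 0.00157 and 0.0927. Leaving out apoE-/- replicate 1 or 3 ended the call (adjusted p = 0.0823 and 0.0927), as did leaving out wild type replicate 1 or 3 (adjusted p = 0.0731 and 0.0845). So did the fit with no intensity trend (adjusted p = 0.059). On the GRCm38.p6 gene table Ppp1r14a starts within 10 Mb of Apoe, the only member that does. The part of that position in its value was not tested.

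The phosphatase itself was measured through its targeting subunits. Ppp1r12b, a targeting subunit of striated and smooth muscle, read 5164, 5722 and 4578 units in apoE-/- aorta and 6987, 6411 and 6645 units in wild-type aorta. Its log2 change was -0.38 ± 0.10 (SE, adjusted p = 0.0875). Ppp1r12a, the main targeting subunit of smooth muscle phosphatase, read 6705 to 7992 units in apoE-/- aorta and 8090.5 to 9251 units in wild-type aorta (log2 change -0.27 ± 0.10, SE, adjusted p = 0.196). Both subunits were thus lower on every apoE-/- array without passing the test, and Ppp1r12b passed only without apoE-/- replicate 2 (adjusted p = 0.047, against up to 0.309 over its 17 settings). The kinase Mylk, on its brightest probe set, and the regulatory light chain Myl9 overlapped between genotypes, with log2 changes of -0.14 ± 0.09 and -0.09 ± 0.13 (SE). The dimmest of 3 Mylk probe sets had separate groups, at -0.33 ± 0.12 in log2 (SE, adjusted p = 0.231 over all probe sets), and the middle one overlapped.

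**Figure D2:**
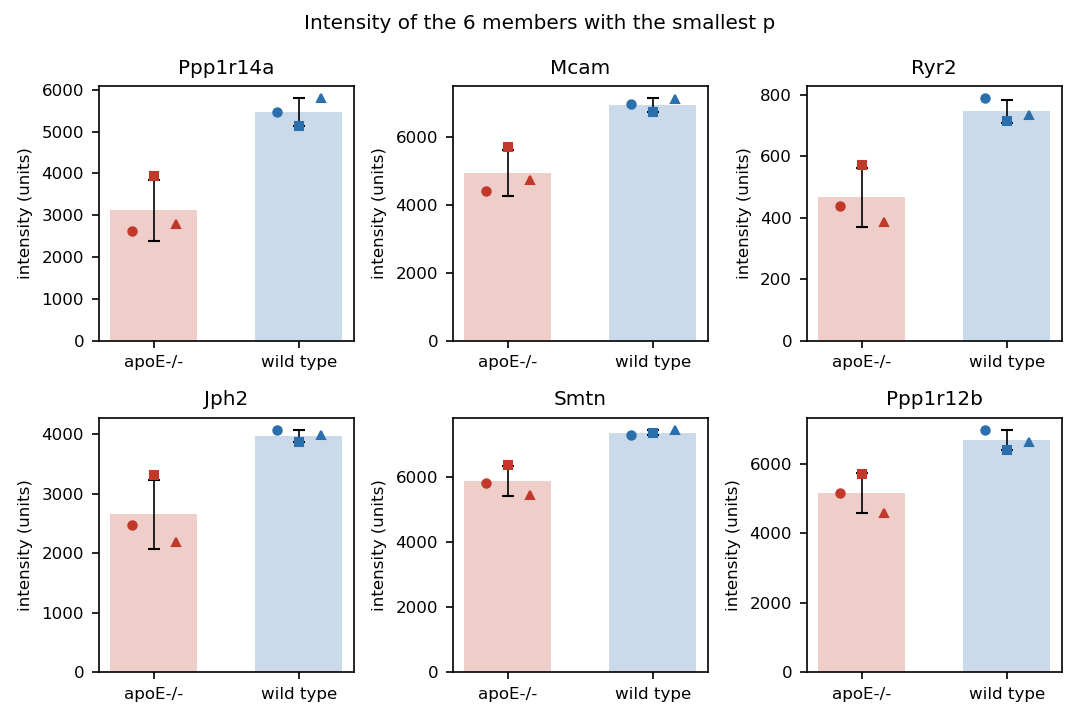
Intensity in units (y axes, starting at 0) of the 6 genes with the smallest p, with bars for the mean, error bars for the SD of 3 arrays and a symbol for each array (circle, square and triangle for replicates 1, 2 and 3). In each panel the 3 apoE-/- arrays sit below the 3 wild-type arrays, and apoE-/- replicate 2, the square, is the highest of its group.

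Myocardin was lower on every apoE-/- array, without passing the test. Its brightest probe set read 1220.4, 1915 and 1608 units in apoE-/- replicates 1, 2 and 3, and 1943, 2291 and 2526 units in wild type replicates 1, 2 and 3. The apoE-/- replicate 2 and wild type replicate 1 values nearly touched. The log2 change was -0.52 ± 0.17 (SE, adjusted p = 0.151), and a dim further probe set changed by -0.76 ± 0.39 with overlapping groups (adjusted p = 0.375). Srf averaged 1349 ± 116 units in apoE-/- aorta and 1567 ± 154 units in wild-type aorta (SD, n = 3 each), with overlap and a log2 change of -0.21 ± 0.11 (SE, adjusted p = 0.345).

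CArG boxes, the elements that SRF binds, were searched in RefSeq promoter windows of GRCm38.p6, which run from 250 bases before to 50 bases after a gene's start. Of 33 member genes with a window, 4 held a strict CArG box (12.1%), against 1.76% of 17492 protein-coding genes. The box reads the same on both strands, and looser copies were not counted. The members with a box are shown with it in capitals and the flanking bases in lower case, because these letters are the element that SRF is known to bind. No window was used for Tagln, Myh11, Actg2, Myocd, Aoc3, Agtr1a, Atp2a2 and Itpr1.
Cnn2, chr10:79988524-79988573, plus strand: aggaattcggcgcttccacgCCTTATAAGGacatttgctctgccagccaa
Myl9, chr2:156775283-156775332, plus strand: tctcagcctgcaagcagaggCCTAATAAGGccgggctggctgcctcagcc
Srf, chr17:46556215-46556264, minus strand: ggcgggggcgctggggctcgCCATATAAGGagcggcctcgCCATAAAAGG
Vcl, chr14:20929151-20929200, plus strand: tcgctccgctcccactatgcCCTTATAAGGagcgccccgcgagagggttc
The box begins 56 bases before the start in Cnn2, 161 in Myl9, 82 and 62 in Srf and 227 in Vcl. None of these 4 genes passed the test or had separate groups. Their log2 changes were 0.02 for Cnn2, -0.09 for Myl9, -0.21 for Srf and -0.14 for Vcl. The 28 tested members with a window and no strict box had a median log2 change of -0.22 and held all 3 called genes. A match in these letters is not a shown binding site, and a window without one says nothing of more distant boxes.

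Among adhesion and cytoskeletal linkers, none of 7 genes passed and all 7 had a lower mean in apoE-/- aorta. Pdlim3, an adaptor of the actin cytoskeleton in muscle, read 4226, 5434 and 4239 units in apoE-/- aorta and 6355, 5809 and 5999 units in wild-type aorta. Synpo2, an actin-bundling protein of the Z-disc and dense bodies, read 6837, 7248 and 6475 units in apoE-/- aorta, against 7878, 8723 and 8208 units in wild-type aorta. All apoE-/- arrays were below all wild-type arrays in both genes, and apoE-/- replicate 2 was again the nearest. Log2 changes were -0.39 ± 0.11 for Pdlim3 (adjusted p = 0.112) and -0.27 ± 0.08 for Synpo2 (SE, adjusted p = 0.139). Pdlim3 passed without apoE-/- replicate 2 (adjusted p = 0.0216, against up to 0.319 over its 17 settings).

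Of the other linkers, only Csrp1 had separate groups on its brightest probe set. The LIM protein Pdlim7 changed by -0.35 ± 0.14 in log2 with overlapping groups (SE, adjusted p = 0.242), and Csrp1, a LIM protein that works with SRF, by -0.19 ± 0.10 without overlap (adjusted p = 0.359). Vinculin (Vcl), filamin A (Flna) and the integrin chain Itga8 overlapped on their brightest probe sets, with log2 changes of -0.14, -0.04 and -0.02. Their 95% intervals, from -0.35 to 0.07, -0.29 to 0.21 and -0.28 to 0.24, leave room for a modest change in either direction. A dimmer probe set had separate groups in Pdlim7 (log2 change -0.48), Csrp1 (-0.35) and Itga8 (-0.13), with limma adjusted p of 0.239, 0.118 and 0.522 over all probe sets. Another dimmer probe set of Pdlim7 (-0.15) and that of Vcl (-0.18) overlapped.

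Mcam fell, alone among 5 genes of the mural cell surface and of G protein regulation. This adhesion molecule, also called CD146, is found on smooth muscle, pericytes and endothelium. It read 4401, 5697 and 4729 units in apoE-/- replicates 1, 2 and 3, and 6955, 6722 and 7114 units in wild type replicates 1, 2 and 3. The wild-type arrays lay within a narrow range, and all apoE-/- arrays were below it. The log2 change was -0.49 ± 0.11 (SE, adjusted p = 0.0422). Mcam kept its call in 7 of 17 alternative settings, with adjusted p from 0.0116 to 0.152, and in 1 of the 6 that left out an array, the one without apoE-/- replicate 2.

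Rgs4 and Rgs5, which switch off G protein signals from vasoconstrictor receptors, differed from each other. Rgs4 read 1387, 1738 and 1881 units in apoE-/- aorta and 2301, 2012 and 2529 units in wild-type aorta on its brightest probe set, a log2 change of -0.45 ± 0.14 (SE, adjusted p = 0.128). Its other probe sets changed by -0.47 and -0.36 in log2, and all 3 had separate groups. Rgs5 averaged 11771 ± 901 units in apoE-/- aorta and 11598 ± 294 units in wild-type aorta (SD, n = 3 each), a log2 change of 0.02 ± 0.09 (SE), and its 3 dimmer probe sets lay between -0.01 and 0.19. The difference between the 2 genes was not tested. The receptor Notch3, which maintains arterial smooth muscle, changed by -0.04 ± 0.09 and the amine oxidase Aoc3 by -0.12 ± 0.13 in log2 (SE), both with overlap.

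Of the calcium store genes, Ryr2 fell and Jph2 lay just outside the threshold. Ryr2, a release channel of the sarcoplasmic reticulum, read 440.3, 573 and 388 units in apoE-/- replicates 1, 2 and 3, against 789.7, 716 and 734 units in wild type replicates 1, 2 and 3. Jph2, junctophilin, which ties the store to the plasma membrane, read 2478, 3306 and 2188 units in apoE-/- aorta and 4066, 3864 and 3988 units in wild-type aorta. Every apoE-/- array was below every wild-type array for both genes. The log2 changes were -0.68 ± 0.15 for Ryr2 (adjusted p = 0.0489) and -0.60 ± 0.14 for Jph2 (SE, adjusted p = 0.0606).

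A second Jph2 probe set had separate groups as well, at -0.52 ± 0.15 in log2 (SE, adjusted p = 0.14 over all probe sets). Ryr2 was called in 8 of 17 alternative settings (adjusted p from 0.0107 to 0.168) and in 1 of the 6 that left out an array, that without apoE-/- replicate 2. Jph2 was called in 2 settings, with array weights and without apoE-/- replicate 2 (adjusted p = 0.00506, against up to 0.189). Both genes are also expressed in striated muscle, and 6 of its 11 tested markers stood out on wild type replicate 3. That array did not read the highest value of either gene, and without it the log2 changes were -0.69 for Ryr2 and -0.60 for Jph2 (adjusted p = 0.134 and 0.171). Among the markers that did not stand out there, Actc1 and Actn2 had every apoE-/- array below every wild-type array. Myh6, Mybpc1 and Tnnt2 overlapped. Myh6 passed the filter only with its reading on wild type replicate 3, 213.7 units against 53.5 to 163.3 units on the other arrays. The part of striated muscle RNA in the Ryr2 and Jph2 values was not tested.

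Atp2a2, the pump that refills the store, overlapped on its brightest probe set, at 6391 to 8097 units in apoE-/- aorta and 7926 to 8209.6 units in wild-type aorta (log2 change -0.16 ± 0.10, SE, adjusted p = 0.437). Its other 4 kept probe sets had separate groups, with log2 changes between -0.50 and -0.33. Phospholamban (Pln), which restrains the pump, was dim and overlapped, at 327 to 475 units in apoE-/- aorta and 389 to 447 units in wild-type aorta.

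None of the 3 genes of the cGMP pathway passed the test. Prkg1, the cGMP-dependent kinase, read 1694, 1946 and 1538 units in apoE-/- aorta, against 2169, 2058 and 2278 units in wild-type aorta, with no overlap. Its log2 change was -0.33 ± 0.11 (SE, adjusted p = 0.151), while a dim second probe set changed by 0.20 with overlapping groups. The kinase substrate Mrvi1, which acts on the inositol trisphosphate receptor, and the cyclase subunit Gucy1a1 overlapped, with log2 changes of -0.25 ± 0.13 and -0.18 ± 0.11 (SE). The angiotensin receptor Agtr1a read 329 to 446 units in apoE-/- aorta and 406 to 452 units in wild-type aorta (log2 change -0.18 ± 0.15, SE, adjusted p = 0.568).

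The size of the shift depended on which probe set was read. Of the 90 member probe sets, 86 passed the filter, and 39 of these 86 had every apoE-/- array below every wild-type array, against 12.2% of all 27022 kept probe sets, and none had every apoE-/- array above, against 10.6%. In a fit of all kept probe sets, 2 of the 86 fell (those of Ppp1r14a and Mcam) and none rose, against 0.281% of all kept probe sets that fell and 2.51% that rose. Of 25 members with several kept probe sets, all of them were lower in 19, none were all higher and 6 were mixed (Cald1, Notch3, Pln, Prkg1, Rgs5 and Tpm1).

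Bright probe sets shifted least. The 14 member probe sets with a mean over 10000 units had a median log2 change of -0.10 and a range from -0.19 to 0.02, and in 3 of them the groups were separate. The 18 probe sets between 3000 and 6000 units had a median of -0.36, with 11 separate, and the 18 between 1000 and 3000 units one of -0.35, with 11 separate. The 13 between 6000 and 10000 units had a median of -0.18, with 6 separate, and the 23 under 1000 units one of -0.21, with 8 separate. Over all kept probe sets the medians of these 5 ranges lay between -0.05 and 0.00. Among all kept probe sets, apoE-/- arrays lay entirely below wild type in 11.2% under 1000 units and 15.5% between 1000 and 3000 units. The share was 15.9% between 3000 and 6000 units and 11.0% between 6000 and 10000 units. Over 10000 units it was 1.42% of 212, and these were the same 3 member probe sets.

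One array of each genotype read the bright end higher than the rest. The number of probe sets over 10000 units was 317, 202 and 188 on apoE-/- replicates 1, 2 and 3, and 187, 285 and 201 on wild type replicates 1, 2 and 3. Acta2, Tagln, Myl9, Flna and Itga8, named here after their values were seen, had their 2 highest readings on apoE-/- replicate 1 and wild type replicate 2. Under quantile normalization, which gives all arrays one distribution, the member probe sets over 10000 units still had a median log2 change of -0.12 and those between 3000 and 6000 units one of -0.36. Whether the scanner or probes were near their upper limit at these intensities was not tested.

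**Figure D3:**
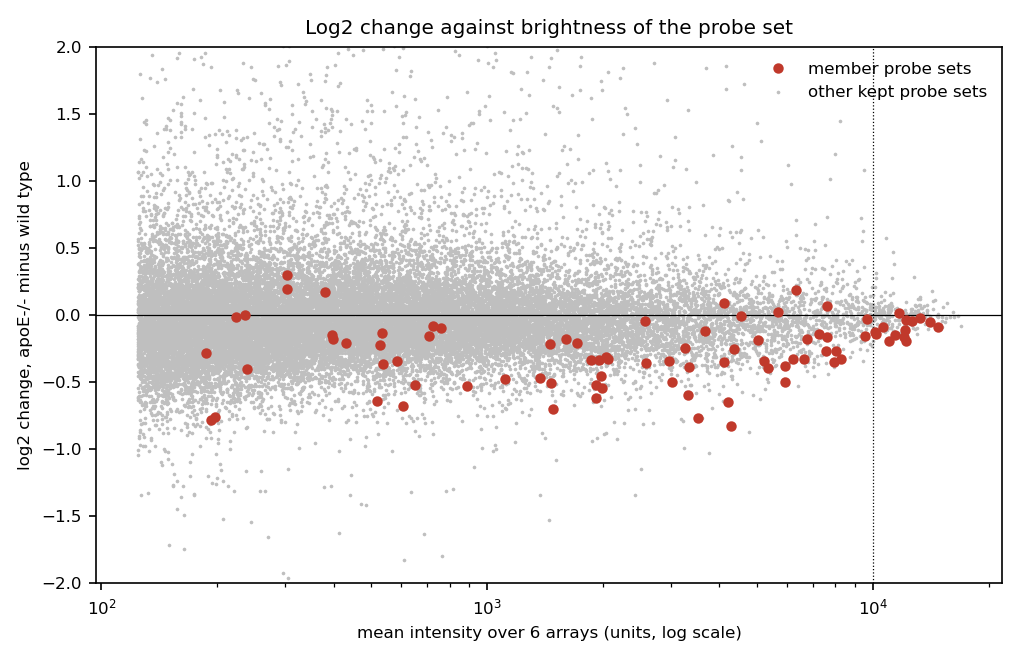
Each point is 1 of 27022 kept probe sets, placed by its mean intensity over the 6 arrays (x axis, units, log scale) and its log2 change, apoE-/- minus wild type (y axis, cut at 2 in both directions, beyond which lie 148 probe sets, none of them a member). The member probe sets, in red, lie mostly below 0 between 1000 and 10000 units and close in on 0 beyond the dotted line at 10000 units.

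Acta2 shows this within 1 gene. Its brightest probe set overlapped between genotypes as given above. Its middle probe set by brightness read 1883, 3623 and 2459.7 units in apoE-/- replicates 1, 2 and 3, and 4088, 4158 and 4879.6 units in wild type replicates 1, 2 and 3. The dimmest read 1272, 2456 and 984 units in apoE-/- aorta and 2583, 2016 and 2176 units in wild-type aorta. The middle probe set separated the genotypes, and on the dimmest apoE-/- replicate 2 lay among the wild-type arrays. Their log2 changes were -0.76 ± 0.21 (SE, adjusted p = 0.107) and -0.62 ± 0.28 (SE, adjusted p = 0.325), against -0.05 for the brightest. Without apoE-/- replicate 2 both passed, at -1.01 ± 0.14 (adjusted p = 0.00764) and -0.995 ± 0.154 (SE, adjusted p = 0.0114), where 0.781% of all kept probe sets fell. What part of the Acta2 transcript each probe set reads is not given in the sources used here.

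Synpo2 and Tpm2 had the same order. Synpo2 changed by -0.27 in log2 on its brightest probe set, with a mean of 7561 units, and by -0.70 to -0.53 on its other 3, with means of 886 to 1985 units. All 4 had separate groups. Tpm2 changed by -0.19 and -0.11 on its 2 probe sets with means of 12204 and 12094 units and by -0.50 ± 0.16 (SE, adjusted p = 0.155) on one with a mean of 1464 units. The dimmest Tpm2 probe set read 1409 units on wild type replicate 3 and 225 to 525 units on the other arrays. Striated muscle markers were also high on that array. In Ppp1r12a all 4 probe sets had separate groups, with log2 changes between -0.65 and -0.27. Over the 25 members with several kept probe sets, the median change of the dimmer ones was lower than that of the brightest in 14. The order seen in Acta2 was thus not general over these 25. They include members whose brightest probe set was itself dim, such as Pln at 396 units. The count therefore cannot settle the order for bright probe sets. Where the brightest had a mean over 10000 units, Acta2, Csrp1, Itga8, Myh11, Mylk, Tpm2 and Vcl had this order. Cald1 and Rgs5 did not. The sizes of these differences were not tested.

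**Figure D4:**
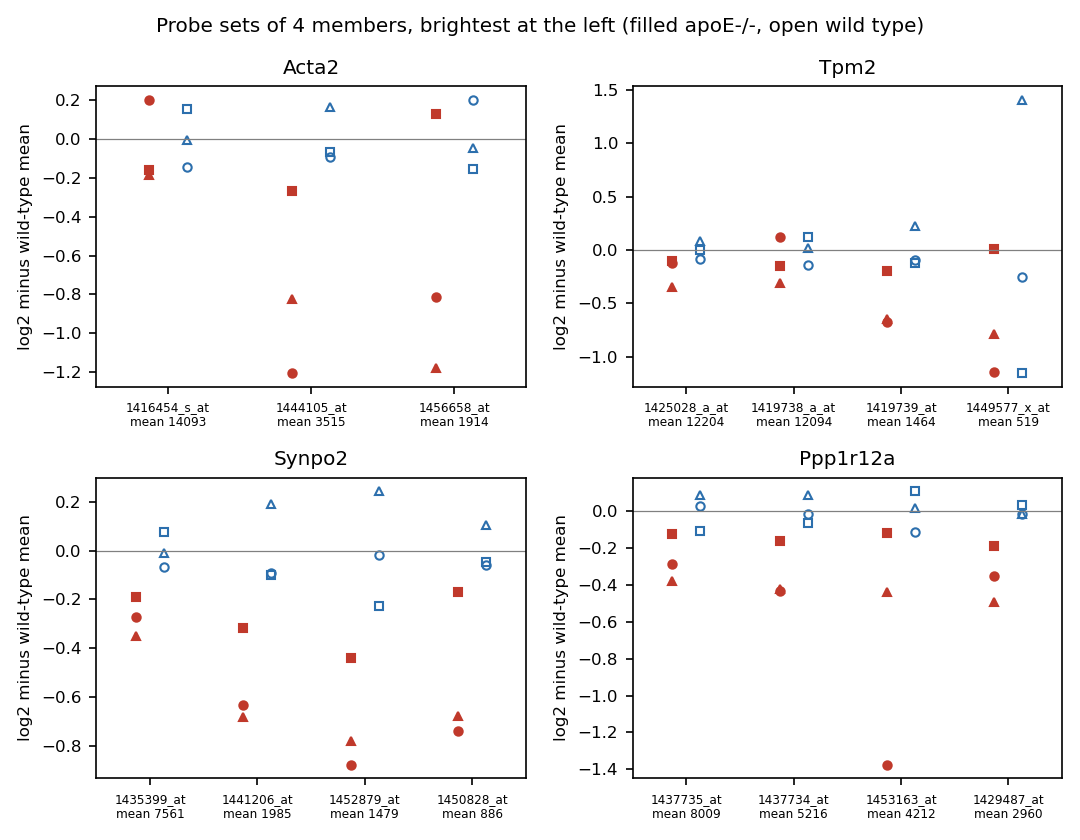
Log2(intensity + 16) minus the wild-type mean (y axes) on each array for the kept probe sets of Acta2, Tpm2, Synpo2 and Ppp1r12a, brightest at the left with the mean intensity in units under each name; circle, square and triangle are replicates 1, 2 and 3, filled red for apoE-/- and open blue for wild type. In Acta2 the apoE-/- circle and triangle drop away from the wild-type arrays on the dimmer probe sets, while in Ppp1r12a the apoE-/- arrays lie below on all 4.

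With each gene set to the median over its probe sets, the median log2 change of the 39 genes was -0.27 in place of -0.18, and the genes that fell were still Ppp1r14a, Mcam and Ryr2. Leaving out all probe sets over 10000 units, a setting chosen after the values were seen, gave -0.25 over 35 genes and the same 3 calls. The number of members called moved when 1 array was left out, which also leaves fewer arrays in that genotype. It was 7 without apoE-/- replicate 2, where Jph2, Lmod1, Pdlim3 and Ppp1r12b joined the 3 and 1.12% of all genes fell. It was 1 without wild type replicate 2, where Ppp1r14a alone passed (0.207% of all genes fell). No member passed when apoE-/- replicate 1 or 3 was left out, where 0.0844% and 0.0997% of all genes fell, or when wild type replicate 1 or 3 was, where 0.123% and 0.169% fell.

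Other genes of the same pathways, listed for the contractile, cGMP, calcium and adhesion steps, were mixed. Of 40 listed, 36 were tested, 2 fell and none rose, and the median log2 change was -0.08. A lower mean in apoE-/- aorta was seen for 22 of the 36, against 58.8% of all genes. The genes that fell were Cacna1c, the pore of the L-type calcium channel, and Itga7, a laminin-binding integrin chain. Cacna1c read 396, 462 and 363 units in apoE-/- aorta and 635, 591 and 724.5 units in wild-type aorta (log2 change -0.66 ± 0.14, SE, adjusted p = 0.0369). Itga7 read 1187.5, 1507 and 1118 units in apoE-/- aorta, against 1953, 1798 and 1876 units in wild-type aorta (log2 change -0.57 ± 0.12, SE, adjusted p = 0.0427). All apoE-/- arrays were below all wild-type arrays in 11 of the 36 genes and above them in 6, where 13.7% and 11.0% of all genes tested were.

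Markers of other cells in and around the vessel wall moved in both directions. Of 10 endothelial markers, 1 rose, the sialomucin Emcn (log2 change 0.76 ± 0.16, SE, adjusted p = 0.0385), and the list median was 0.22. Of 10 markers of adventitial fibroblasts, 1 rose, the proteoglycan Lum (1.02 ± 0.14, adjusted p = 0.00613), with a list median of 0.06. Of 5 tested pericyte markers, 1 rose, the peptidase Anpep (1.18 ± 0.25, adjusted p = 0.0411), which macrophages also express, and the list median was -0.01. Their summed levels were 14299 to 17350 units in apoE-/- aorta and 11193 to 15394 units in wild-type aorta for endothelium, and 74571 to 90444 against 68023 to 70969.5 units for fibroblasts. For pericytes they were 17100 to 20860 units in apoE-/- aorta and 17616 to 19419 units in wild-type aorta. Adipocyte markers also leaned lower, with 6 of 7 tested below wild type and a list median of -0.45. None passed, 1 had an unadjusted p under 0.05, and that gene was Retn (log2 change -0.51 ± 0.20, SE, adjusted p = 0.233). Their sums were 36081 to 51030 units in apoE-/- aorta and 38196 to 63612 units in wild-type aorta, with overlap. Of the 11 striated muscle markers, 10 were lower in apoE-/- aorta, with a list median of -1.30 that includes the high readings of wild type replicate 3. Some of these 11 passed the filter only through that array, which also bears on the median. None passed and 4 had an unadjusted p under 0.05, the smallest for Actc1 (log2 change -0.62 ± 0.18, SE, adjusted p = 0.121). The part of fat or striated muscle RNA in the smooth muscle values was not tested. The difference between the smooth muscle genes and these lists was not tested.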

How the data were processed

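Total RNA of mouse aorta was measured on 6 single-colour oligonucleotide arrays. The authors deposited 1 linear intensity per probe set and array; the software that made it is not given in the sources used here. The values themselves showed that each array was scaled to a mean of 500.002 after trimming 2% at each end. No detection calls were used.

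Intensities were taken as log2(intensity + 16), which understates the change of dim probe sets. The 64 control probe sets and the lower 40% by mean over all arrays (18015) were left out, and 27022 were kept. Names came from the platform annotation (1 symbol for 34958 probe sets, several for 932, which name no gene, none for 9160) and were updated through the GRCm38.p6 gene table, which held the gene identifiers of 34754. The kept probe set of highest mean stood for each of 13039 genes. The test between genotypes was that of limma 3.58.1, run under R 4.3.3 (eBayes with an intensity trend, genotype only), with Benjamini-Hochberg adjustment over all genes or all kept probe sets. The fit was tested on simulated data. An exact permutation test of 3 arrays against 3 cannot reach 0.05 and was not used. Arrays were placed in groups by their titles, and their number limits the precision. The members and gene lists were chosen with earlier results of these data known. Every array's value is given for Acta2, Myh11, Tagln, Cnn1, called members and the 12 of smallest p; of other lists, up to 4 called genes by size of change, or the gene of smallest p where none was called, are named.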

Additional observations from a re-analysis of the deposited data

How the results depend on the processing

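Of the 17 alternative settings, 1, leaving out probe sets over 10000 units, was chosen after seeing the data. The number of members called, 3, was 4 with array weights and 2 with quantile normalization, where Mcam had a limma adjusted p of 0.0602. It was 1 with median centring and with no filter, 0 with no intensity trend and with the replicate block, and 0 to 7 when 1 array was left out. The number of member probe sets called, 2, was 4 with the lower 60% left out and 6 with array weights. It was 0 with no filter, no intensity trend or the replicate block, and 0 to 15 when 1 array was left out. The 15 came without apoE-/- replicate 2, where 0.781% of all kept probe sets fell, against 0.281% in the main fit. For the other settings the share over all probe sets is not given here, so their counts are not read as a result about the members. The median log2 change of the members, -0.18, was -0.27 with each gene set to the median over its probe sets, -0.25 without probe sets over 10000 units, and -0.26 to -0.11 when 1 array was left out. Over all genes, both directions together, the 477 calls of 13039 genes became 462 with median centring and 612 with array weights. They were 367 of 18161 genes with no filter and 438 of 9925 with the lower 60% left out. With no intensity trend they were 297, with the replicate block 314, and 154 to 704 when 1 array was left out. The cause of these moves was not tested. The log2 change of Tagln was 0.0023 with array weights, and without apoE-/- replicate 2, apoE-/- replicate 3 or wild type replicate 2 it was 0.0336, 0.0195 and 0.0413; for Acta2 the same 3 settings gave 0.0064, 0.0211 and 0.0269. With 1 array left out Acta2 ranged from -0.17 to 0.03 and Tagln from -0.18 to 0.04. Same-numbered samples deviated together by r = -0.12, -0.16 and -0.03, and the pairing was not used in the main fit. The labels do not say what the numbers mean, and these 3 values cannot show whether same-numbered samples were handled together. With the replicate block Ppp1r14a, Mcam and Ryr2 had limma adjusted p of 0.0555, 0.125 and 0.111. No setting called a member higher.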
